A study of Mus musculus with 7 samples.

Results

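The genes described here are 8 members of the interleukin-6 (IL-6) pathway, picked out of the table by symbol, after earlier results of these data were known: the ligands Il6, Lif and Osm, the receptor chains Il6ra, Il6st and Osmr, the transcription factor Stat3 and its feedback inhibitor Socs3. All 8 were found among the 17920 genes of the deposited table, and all 8 were among the 11378 genes with a mean of at least 1 FPKM (fragments counted on a gene, scaled by transcript length and by library size) that entered the tests. The study followed the spleen of C57BL/6 mice, 8 weeks old, after an intraperitoneal injection of 20 mg/kg lipopolysaccharide (LPS), a bacterial cell wall component. The groups were wild type at 90 min (2 libraries), GdX-deficient at 90 min (2 libraries), wild type at 6 h (2 libraries) and GdX-deficient at 6 h (1 library); GdX-deficient samples are called mutant from here on. GdX, also called UBL4A, is a small ubiquitin-like protein encoded on the X chromosome. The genotype label reads GdX-/- and the protocol GdX-/Y, so the mutation is carried by the whole animal. All 7 libraries come from LPS-treated mice, and no untreated spleen was analysed here. Nothing in the labels says whether each library is 1 mouse or a pool, so p-values measure the spread between these libraries, which may be technical.

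IL-6 family cytokines signal through the shared receptor chain gp130, the product of Il6st. IL-6 binds its own receptor IL-6Rα (Il6ra) before it engages gp130, while leukaemia inhibitory factor (Lif) and oncostatin M (Osm) bring gp130 together with other chains, OSMR among them. JAK kinases bound to the receptors phosphorylate STAT3, which enters the nucleus and induces genes that include Socs3, and SOCS3 protein then blocks further signalling from gp130. In the spleen after LPS, IL-6 is made by macrophages, dendritic cells, stromal and endothelial cells, and it is the main inducer of the acute-phase response.

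Stretches of DNA before a listed start of Il6 and of Socs3 are shown. Il6 was the only member below wild type in each mutant library at its time, and Socs3 is the best known STAT3 target in the family. By RefSeq, Il6 lies on chromosome 5, Il6ra on 3, Il6st on 13, Osmr on 15, and Lif, Osm, Stat3 and Socs3 on 11. Both stretches come from RefSeq (GRCm38.p6), which held a promoter for 7 of the 8 members; Osm had no entry. The 250 bases before the Il6 start lie at chr5:30012864-30013113 on the plus strand. For Socs3, a stretch of 120 bases upstream of the listed start, at chr11:117969467-117969586 on the minus strand, is shown. Capitals mark matches on either strand to 4 motifs: the STAT motif TTCNNNGAA, the NF-kB consensus, the C/EBP-type motif TTGCNNAA and the AP-1 motif TGANTCA.
Il6: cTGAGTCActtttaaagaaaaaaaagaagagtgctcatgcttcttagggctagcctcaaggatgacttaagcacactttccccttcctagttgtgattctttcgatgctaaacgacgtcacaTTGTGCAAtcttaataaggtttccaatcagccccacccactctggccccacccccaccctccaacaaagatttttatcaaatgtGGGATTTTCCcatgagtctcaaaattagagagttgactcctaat
Socs3: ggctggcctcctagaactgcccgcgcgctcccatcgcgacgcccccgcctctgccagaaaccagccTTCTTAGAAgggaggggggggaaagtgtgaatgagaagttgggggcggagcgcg
The Il6 stretch held an AP-1 match at 249 to 243 bases before the start, a C/EBP-type match at 128 to 121 and an NF-kB match, GGGATTTTCC, at 44 to 35. The Socs3 stretch held 1 STAT match, TTCTTAGAA, at 154 to 146 bases before that inner start. Among the 250 bases before each of 32851 listed starts, 3.90% held the NF-kB motif, 9.56% the C/EBP-type motif, 6.75% the AP-1 motif and 7.02% the STAT motif. Of the other members, Lif held an AP-1 match, TGACTCA, at 228 to 222 bases, and the windows of Il6ra, Il6st, Osmr and Stat3 held none of the 4. The Osmr window lies inside its gene span and the Stat3 window overlaps its own, so both also precede inner starts. A match is a description of letters and was not tested for binding.

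Some facts of the libraries bear on what follows. The depth, estimated from the steps of low values in genes with 1 transcript, lay between 18900000 and 21200000 fragments per library. Of the 208 to 250 such low genes, between 66.4% and 72.6% fell within 0.15 of a whole fragment, so these depths are approximate. Ubl4a, the gene that encodes GdX, was between 4.03 and 10.6 FPKM in the mutant and between 5.62 and 14.0 FPKM in the wild-type libraries, and the genotypes overlapped at 90 min, so its own value does not separate them. The sum of Ubl4a and Gm44504, a gene that overlaps it in the RefSeq table, was 5.04, 7.55 and 11.2 FPKM in the mutant libraries and 21.0 to 63.0 FPKM in wild type. Replicate 2 of the mutant group at 90 min stood apart: the summed FPKM of 9 of 9 neutrophil markers was 4699 there, against 996 in its replicate and 688 to 1075 in the 4 wild-type libraries. It was 2591 in the mutant library at 6 h. The labels give C57BL/6 for both genotypes, but the beta-globin genes Hbb-b1 and Hbb-b2 separated them: Hbb-b1 was at 16577 to 44998 FPKM in the 3 mutant and 6.70 to 13.8 FPKM in the 4 wild-type libraries, and Hbb-b2 at 4059 to 11053 against 1.55 to 4.68 FPKM. Mouse strains carry either this pair or the pair Hbb-bs and Hbb-bt, and the latter was high in all 7 libraries. Any difference in genetic background and the loss of GdX cannot be told apart in the genotype comparisons that follow. B-cell markers (9 of 9 listed) were present in every library, with sums from 547 to 2364 FPKM. The labels give the tissue as spleen and the RNA source as splenocytes, while the protocol has the collected spleen crushed for RNA, so whether stromal, endothelial and red cells were kept in full is not given. In bulk tissue, fewer cells of a type and less RNA per cell cannot be told apart.

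FPKM is scaled by transcript length, so levels can be compared between genes. In wild type at 90 min Socs3 was the most abundant member (345 ± 108 FPKM; SD, n = 2), followed by Il6 (152 ± 45.5 FPKM) and Stat3 (143 ± 36.4 FPKM), whose libraries overlapped. Il6st stood at 22.3 ± 4.43 FPKM, Osm at 13.0 ± 1.03 FPKM, Osmr at 10.3 ± 1.51 FPKM, Lif at 8.06 ± 3.46 FPKM and Il6ra at 7.62 ± 1.38 FPKM. Osm lay above Osmr in both of these libraries, while Lif overlapped with both Osmr and Il6ra. The shared chain was more abundant as RNA than either specific chain in every library: Il6st exceeded Il6ra by 1.82 to 3.60 times and Osmr by 2.08 to 5.01 times in the 7 libraries. Socs3 and Stat3 ranked high among all genes in every library, the lowest place being percentile 91.9 for Socs3 in the mutant library at 6 h.

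**Figure D1:**
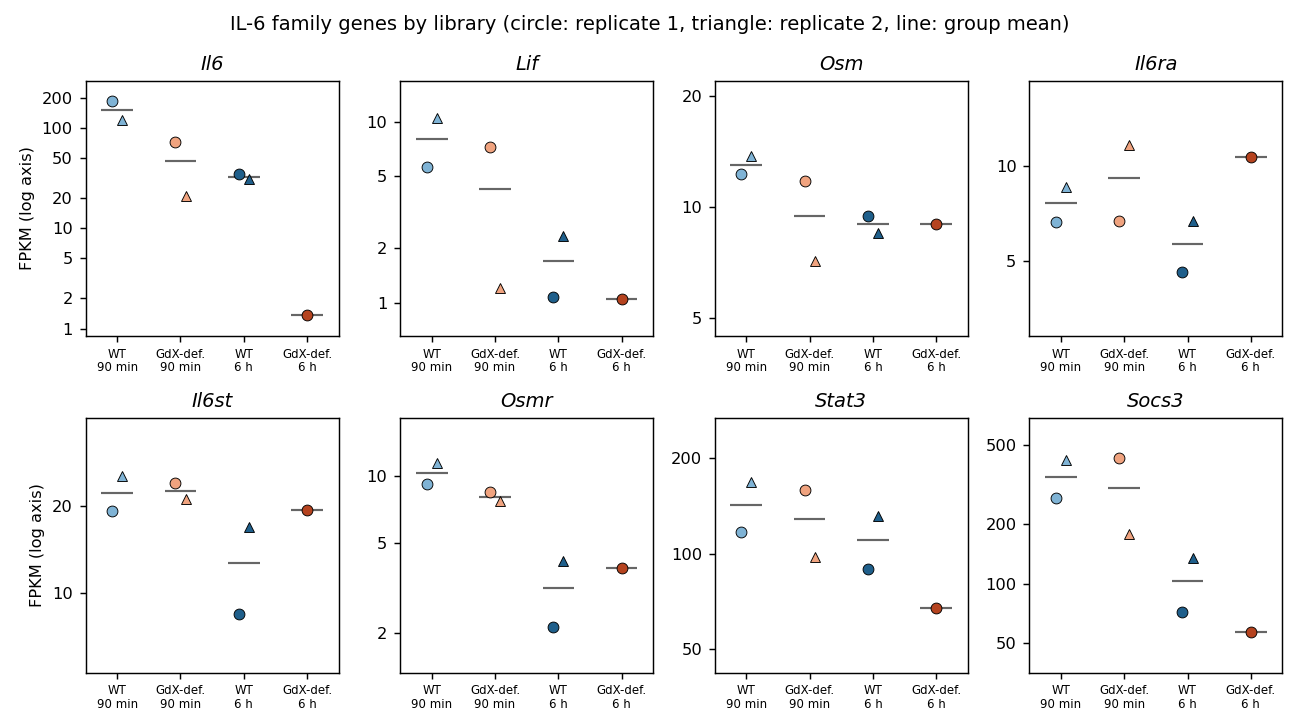
Level of each of the 8 genes in FPKM (vertical log axis) in every library, by genotype and time after LPS; circles are replicate 1, triangles replicate 2 and lines group means. Il6 in the mutant library at 6 h, at 1.35 FPKM, lies far below the 31.1 and 34.7 FPKM of wild type, while Osm at 8.99 FPKM lies between its wild-type libraries.

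The first comparison asked how the family differed between genotypes at 90 min, and Il6 showed the largest difference of the 8. Il6 encodes the founding cytokine of the family. It stood at 72.2 and 21.0 FPKM in mutant and at 185 and 120 FPKM in wild-type spleen, so the genotypes did not overlap and the mutant mean was 30.5% of the wild-type mean. The difference on the log2(FPKM + 1) scale was -1.90 (SE 0.49, unadjusted p = 0.00336, limma adjusted p = 0.520). Here limma is a linear model whose errors are moderated across genes, and adjusted p-values follow Benjamini and Hochberg over all genes tested. Il6 ranked 66th by p among 11378 genes, and it did not pass the threshold of 0.05.

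The other ligands showed smaller differences at 90 min. Lif, a cytokine named for its action on leukaemia cells, was at 7.28 and 1.21 FPKM in mutant and 5.61 and 10.5 FPKM in wild-type spleen. The low value is replicate 2, and replicate 1 lies inside the wild-type range. Osm, a product of activated myeloid and T cells, was at 11.8 and 7.15 FPKM against 12.2 and 13.7 FPKM, so it was below wild type in both libraries, with a log2 difference of -0.45 (SE 0.31, limma adjusted p = 0.639). Replicate 1 lay close to the nearer wild-type library.

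The receptor chains and the STAT3 arm lay close together at 90 min. Il6st was at 24.1 and 21.3 FPKM in mutant and 19.2 and 25.5 FPKM in wild-type spleen, a log2 difference of 0.032 (SE 0.35). Il6ra was at 6.70 and 11.6 FPKM against 6.64 and 8.59 FPKM, and the groups overlapped. Osmr, the oncostatin M receptor chain, was at 8.47 and 7.74 FPKM against 9.25 and 11.4 FPKM and was below wild type in both libraries (log2 difference -0.31, SE 0.33). Stat3 was at 159 and 97.5 FPKM against 117 and 168 FPKM, and Socs3 at 429 and 178 FPKM against 269 and 422 FPKM. For both of these genes replicate 1 of the mutant group lay near the upper wild-type library and replicate 2 below both, so the groups overlapped.

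None of the 8 members passed the test at 90 min, where limma called 0.0176% of all genes, namely Hbb-b1 and Hbb-b2. At an unadjusted p under 0.05 there was 1 member, Il6, against 7.58% of all genes. Libraries of the genotypes were separate (every mutant library on 1 side of every wild-type library) and lower for 3 members, Il6, Osm and Osmr, and separate and higher for 0, where 23.4% of all genes were separate and lower and 24.1% separate and higher. The median log2 difference of the 8 was -0.30, beside 0.071 for all genes. Il6 passed in the fit of the 4 libraries compared (limma adjusted p = 0.00602), which called 181 genes, against 2 in the fit of all 7 libraries. Under the other alternatives that kept all 7 libraries Il6 did not pass (limma adjusted p from 0.124 to 0.664). Its log2 difference was -1.04 without replicate 2 of the mutant group and -2.77 without replicate 1, and without replicate 2 that of Socs3 turned to 0.35 and that of Stat3 to 0.18.

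Marker levels also differed at 90 min, in both directions. The summed FPKM of 9 of 9 stromal markers was 100.6 and 59.5 in mutant and 259 and 190 in wild-type spleen, with a median log2 difference of -1.28. Endothelial (52.2 and 56.5 against 59.4 and 68.7) and platelet sums (109 and 108 against 188 and 172) were also lower in both mutant libraries. So was the sum of pancreas and fat (26.1 and 25.2 against 59.1 and 44.6). The natural killer cell sum was higher in both (157 and 189 against 143 and 129). The monocyte and macrophage sum was 1408 and 1387 against 1603 and 1695, but Csf1r, Adgre1, Cd68, Spic, Ly6c2 and Ccr2 of that list overlapped and its median was -0.099. None of the tested markers in these lists passed the test at 90 min. The neutrophil and red-cell lists had median log2 differences of 1.27 and 0.87, but the sums of both overlapped between genotypes, and the high neutrophil sum was that of mutant replicate 2 alone. Of 11 red-cell markers, Hbb-b1 and Hbb-b2 were called higher, while Hbb-bs and Hbb-bt were below wild type in both mutant libraries. No marker was at 0 in every library, although Clec4f, on the macrophage list, was at 0.02 FPKM in 1 library and 0 in the others. Their part in the Il6 difference was not tested.

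At 6 h the genotypes differed in Il6 more than in any other member. Il6 was at 1.35 FPKM in the mutant library and at 34.7 and 31.1 FPKM in wild type, a mean 24.4 times the mutant value. The mutant value rests on about 30 fragments, for which counting error alone gives an exact Poisson 95% interval of 0.911 to 1.93 FPKM. Its place among all genes was percentile 37.1, against 86.9 and 84.5 in wild type. On the log2(FPKM + 1) scale the difference, which is understated for a gene this low, was -3.85 (SE 0.60, limma adjusted p = 0.0174), in a fit that assumes the single mutant library to vary like the other groups. That difference has no replicate check on the mutant side. Limma called 3.96% of all genes in this comparison, with 1.05% of all genes called lower, and 1 of the 8 members, Il6. The call was lost without a filter on low values (limma adjusted p = 0.0869), and over all alternatives the adjusted p ran from 7.20e-08 to 0.0869, the lowest from a fit whose spread comes from the 2 wild-type libraries alone.

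Of the other ligands at 6 h, Osm stood between its wild-type libraries and Lif below both, at 61.4% of the wild-type mean. Osm was at 8.99 FPKM in the mutant library and 9.42 and 8.49 FPKM in wild type, a log2 difference of 0.0066 (SE 0.38). Lif was at 1.05 FPKM against 1.08 and 2.34 FPKM, near the lower wild-type library. Within a library, Il6 made up 91.2% and 83.2% of the summed FPKM of the 3 ligands in wild type at 90 min and 79.1% and 71.5% in mutant spleen. At 6 h its share was 76.8% and 74.2% in wild type and 11.9% in the mutant library, where Osm made up 78.9%.

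**Figure D2:**
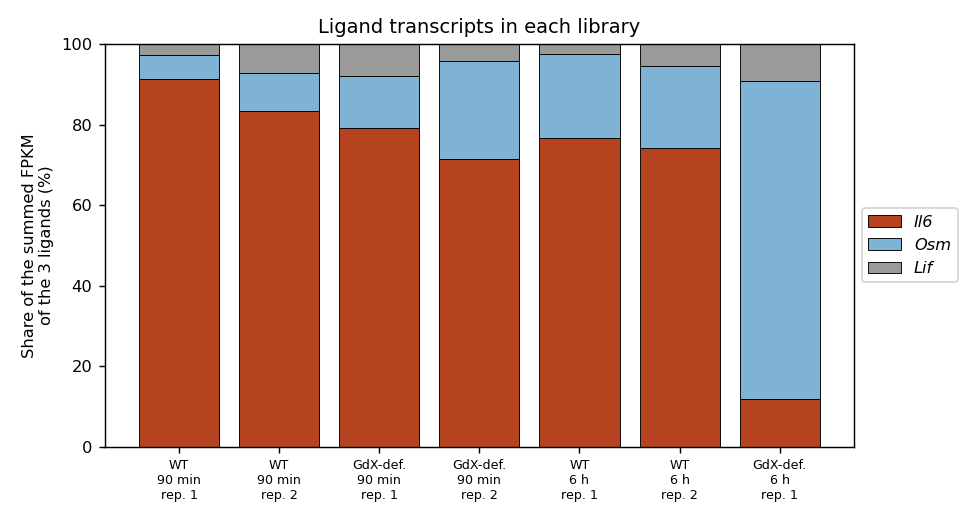
Share of Il6, Osm and Lif in their summed FPKM (vertical axis, percent) in each of the 7 libraries. Il6 is the largest part in 6 libraries, at 71.5% to 91.2%, and 11.9% in the mutant library at 6 h.

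Il6ra and Il6st had higher values in the mutant library at 6 h without passing the test. Il6ra was at 10.7 FPKM in the mutant library against 4.62 and 6.69 FPKM, and Il6st at 19.5 FPKM against 8.42 and 16.9 FPKM, both above either wild-type library. The log2 differences were 0.83 (SE 0.42, limma adjusted p = 0.231) for Il6ra and 0.66 (SE 0.42, limma adjusted p = 0.327) for Il6st. The median of all genes was itself 0.32 in this comparison, and relative to it the values were 0.51 and 0.34. After quantile normalization the median of all genes was -0.017 and no member changed its call, while Osm (-0.41) and Osmr (-0.29) turned below 0. Osmr was at 3.89 FPKM, between 2.12 and 4.19 FPKM.

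Stat3 and Socs3 were lower in the mutant library at 6 h than in either wild-type library. Stat3 was at 67.2 FPKM against 89.1 and 132 FPKM, a log2 difference of -0.68 (SE 0.41, limma adjusted p = 0.294). Socs3 was at 57.0 FPKM against 71.7 and 135 FPKM, a log2 difference of -0.78 (SE 0.55, limma adjusted p = 0.373). Neither passed the test. With a wild-type 6 h library left out, the difference was -0.96 or -0.40 for Stat3 and -1.23 or -0.33 for Socs3. Counting separation alone, 4 members lay below both wild-type libraries and 2 above, where 25.3% of all genes were separate and lower and 54.9% separate and higher. Without replicate 2 of wild type at 6 h the Il6st difference was 1.12, and without replicate 1 it was 0.19. The medians of all genes were then 0.46 and 0.18.

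At 6 h 8 of the 10 marker lists other than red cells had a sum above both wild-type libraries in the mutant library. The B-cell sum was 2018 FPKM against 547 and 615 in wild type, with 3 of 9 markers called higher, and the T-cell sum was 389 against 212 and 176, with 2 of 9 called higher. The monocyte and macrophage sum was 1732 against 860 and 894 (3 of 11 tested called higher), the neutrophil sum 2591 against 1062 and 740.04 (0 of 9), and the stromal sum 158 against 106 and 90.9 (1 of 9). Dendritic-cell (41.6 against 18.9 and 21.7) and endothelial sums (100.08 against 56.0 and 66.6) also lay above both wild-type libraries, as did the platelet sum (159 against 134 and 99.6). The natural killer cell sum lay between the wild-type libraries (213 against 215 and 165), and that of pancreas and fat below both (9.43 against 24.3 and 12.6). Of the red-cell markers 6 of 11 were called higher, Hbb-b1 and Hbb-b2 among them, while Hbb-bs (14413 against 18786 and 16267) and Hbb-bt (3194 against 4921 and 3728) were below both wild-type libraries. The part of cell composition in the values of Il6, Il6ra and Il6st was not tested.

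**Figure D3:**
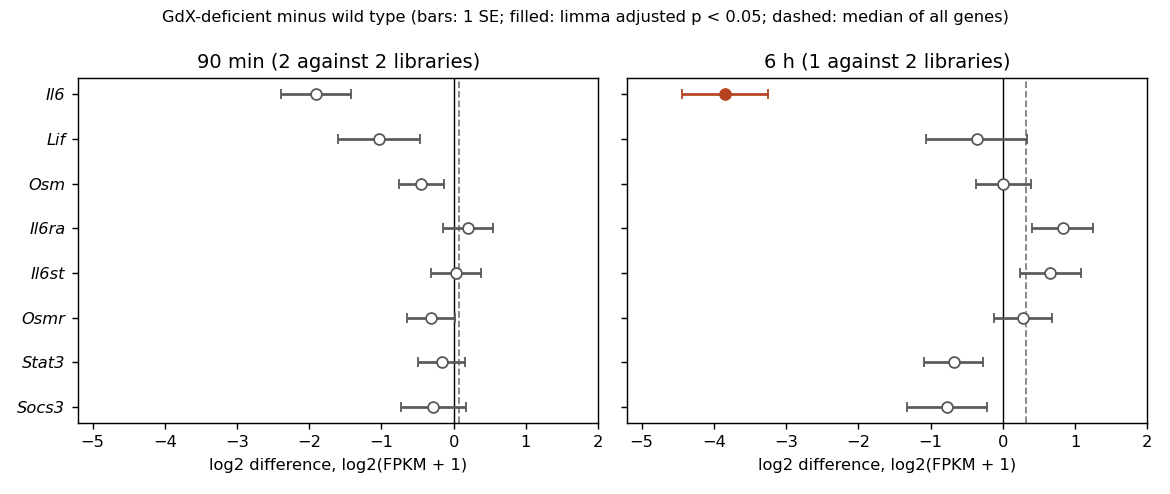
Difference of mutant minus wild type on the log2(FPKM + 1) scale (horizontal axis) for the 8 genes at 90 min and 6 h; bars are 1 SE from limma, filled points passed an adjusted p of 0.05 and dashed lines are the median of all genes. Il6 at 6 h, at -3.85, is the only filled point.

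In a model with genotype and time as terms (3 mutant and 4 wild-type libraries), none of the 8 members passed the test, where limma called 0.0439% of all genes. Il6 had a log2 difference of -2.68 (SE 0.46, unadjusted p = 0.000123, limma adjusted p = 0.0915) and ranked 11th by p among 11378 genes. It was the 1 member with an unadjusted p under 0.05, where 27% of all genes were. It was also the 1 member that was separate in the same direction at both times; 13% of all genes were separate and lower at both. The next largest differences were -0.76 for Lif (SE 0.43), -0.48 for Socs3 (SE 0.34) and 0.45 for Il6ra (SE 0.28). With 1 library left out, the Il6 difference ran from -3.31 (without mutant replicate 1 of 90 min) to -1.90 (without the mutant 6 h library). Under the alternatives that kept all 7 libraries Il6 did not pass (limma adjusted p from 0.0521 to 0.225).

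The course from 90 min to 6 h was then compared within each genotype. In wild type all 8 members had lower log2 values at 6 h, as did 46.9% of all genes, and 3 passed the test: Il6, Osmr and Socs3. Il6 fell by 2.15 (SE 0.49, limma adjusted p = 0.0254), Socs3 by 1.76 (SE 0.45, limma adjusted p = 0.0387) and Osmr by 1.49 (SE 0.33, limma adjusted p = 0.0238). The test called 10.7% of all genes, with 6.32% of all genes called lower. In mean FPKM the level at 6 h was 21.6% of that at 90 min for Il6, 29.9% for Socs3 and 30.6% for Osmr. The median log2 difference of the 8 was -1.16, beside 0.052 for all genes. Markers of several cell types were also lower in wild type at 6 h: 4 of 9 stromal, 5 of 11 monocyte and macrophage, 5 of 6 dendritic-cell, 5 of 9 T-cell, 4 of 9 B-cell and 6 of 11 red-cell markers tested were called lower. Neutrophil and endothelial markers had medians near 0 (0.00095 and -0.040), with 2 of 9 neutrophil markers called lower and 1 of 5 endothelial markers called in each direction. The stromal sum at 6 h was 106 and 90.9 FPKM, against 259 and 190 at 90 min. Their part in the time differences of the members was not tested.

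Of the members that did not pass, Lif had the largest difference, -1.73 (SE 0.57, limma adjusted p = 0.0828), with 1.08 and 2.34 FPKM at 6 h against 5.61 and 10.5 FPKM at 90 min. Il6st differed by -0.83 (SE 0.35, limma adjusted p = 0.1504), Osm by -0.49, Il6ra by -0.38 and Stat3 by -0.37. The 6 h libraries lay below both 90 min libraries for 6 members, all but Il6ra and Stat3, where 27.6% of all genes did. The 3 calls were lost without a filter on low values (limma adjusted p = 0.112 for Il6, 0.0740 for Osmr and 0.138 for Socs3), and Osmr and Socs3 lost theirs when FPKM was rescaled without globin genes (0.0574 and 0.0539) or when 90 min replicate 2 was dropped (0.149 and 0.0708). Osmr also lost its call without 90 min replicate 1 (0.0748) or 6 h replicate 1 (0.0567). Lif passed in the fit of the 4 wild-type libraries (0.0453) and without 6 h replicate 2 (0.00563), 90 min replicate 1 (0.0223) or either mutant 90 min library (0.0422 and 0.0442), and Il6st without 6 h replicate 2 (0.0146). Over the alternatives the adjusted p ran from 0.00563 to 0.230 for Lif and from 0.0146 to 0.543 for Il6st, and it ran up to 0.112 for Il6, 0.149 for Osmr and 0.138 for Socs3.

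In mutant spleen the 6 h value rests on 1 library. Il6 stood at 1.35 FPKM there, against 72.2 and 21.0 FPKM at 90 min, a log2 difference of -4.09 (SE 0.60, limma adjusted p = 0.0614). Socs3 stood at 57.0 FPKM against 429 and 178 FPKM, a difference of -2.26 (SE 0.55, limma adjusted p = 0.203). Osmr (-0.90), Stat3 (-0.88), Lif (-1.06) and Il6st (-0.21) were also below both 90 min libraries, while Osm (-0.030) and Il6ra (0.24) lay between them; 15.8% of all genes were separate and lower. No member passed the test, which called 0% of all genes; at an unadjusted p under 0.05 there were 2 members, Il6 and Socs3, against 8% of all genes (910 genes). Il6 ranked 7th by p among 11378 genes. Il6 and Socs3 both passed in the fit of the 3 libraries compared, where the spread comes from the 2 mutant libraries of 90 min alone, and without any 1 of the 4 wild-type libraries, and Il6 alone passed without replicate 2 of the mutant group at 90 min (limma adjusted p = 0.0492). The adjusted p of Il6 ran from 1.14e-14 to 0.258 and that of Socs3 from 1.86e-09 to 0.643 over the alternatives, the lowest values being those of that 3-library fit.

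The difference between the genotypes in the course over time was tested as an interaction, which also rests on the single library. For Il6 it was -1.94 (SE 0.77, unadjusted p = 0.0319, limma adjusted p = 0.430), so a steeper course in mutant spleen was not established. On simulated data this test recovered none of the genes changed by a similar size, so missing the threshold here carries little information. None of the 8 members passed, where limma called 0.0703% of all genes. Il6 was the 1 member with an unadjusted p below 0.05, a level reached by 9.98% of genes. Within a library the ratio of Socs3 to Stat3 was 2.30 and 2.51 in wild type and 2.70 and 1.82 in mutant spleen at 90 min. At 6 h it was 0.805 and 1.03 in wild type and 0.848 in the mutant library, between the wild-type values.

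**Figure D4:**
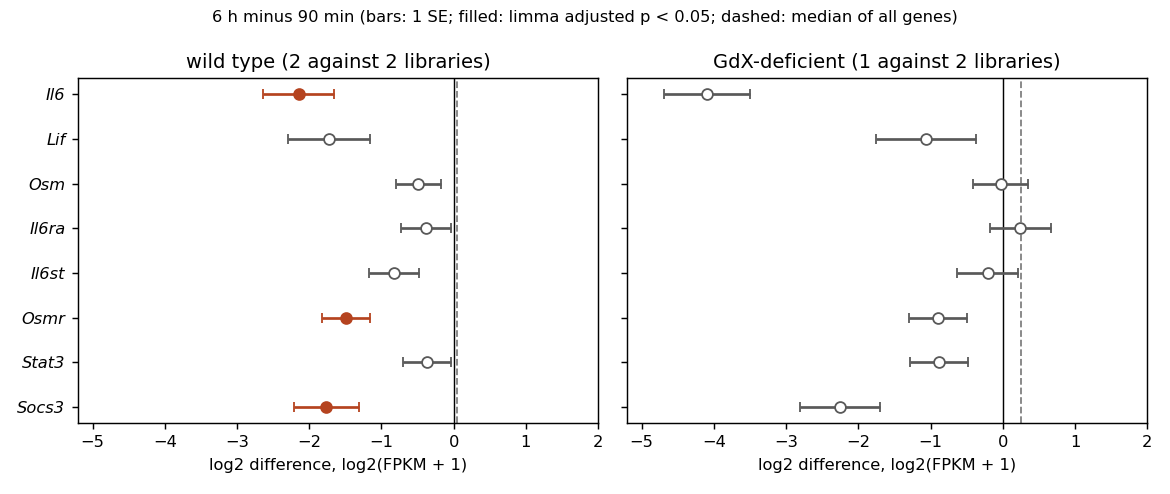
Difference of 6 h minus 90 min on the log2(FPKM + 1) scale (horizontal axis) for the 8 genes in wild type and mutant spleen; bars are 1 SE from limma, filled points passed an adjusted p of 0.05 and dashed lines are the median of all genes. All 8 points lie below 0 in wild type, and Il6 reaches -4.09 in mutant spleen.

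Other ligands of the family were looked at next. Of 8 listed, 7 were in the table and 5 were tested. None was called between genotypes at either time, and their median log2 difference was -0.57 at 90 min and -0.87 at 6 h, beside 0.071 and 0.32 for all genes. Ebi3, a subunit of interleukin-27, was at 82.4 and 34.3 FPKM in mutant and 92.6 and 111 FPKM in wild-type spleen at 90 min; the 6 h values were 36.1 FPKM against 70.7 and 62.9 FPKM. Il27, the partner subunit, was at 12.0 FPKM in the mutant library at 6 h against 48.9 and 50.1 FPKM. Of the 5 ligands, 2 (Ebi3 and Il11) were below wild type in each mutant library at its time, where 13% of all genes were, and Il27 overlapped at 90 min. Another 1, Cntf, was above wild type at both times. It was at 1.47 and 2.71 against 1.09 and 1.04 FPKM at 90 min, and at 1.66 against 1.17 and 1.10 FPKM at 6 h. Clcf1, a ligand that signals through the CNTF receptor, was above wild type, at 24.4 FPKM against 8.47 and 11.3 FPKM at 6 h. It fell with time in wild type by 1.83 (SE 0.27, limma adjusted p = 0.00588), the 1 call among these 5 ligands, where 10.7% of all genes were called and 6.32% were called lower. Il11 stood at 29.5 and 0.80 FPKM in the wild-type replicates at 6 h and at 0.79 FPKM in the mutant library, and its spread within wild type was wide.

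Among the other receptors, 3 of 5 were tested. Il27ra, the receptor for interleukin-27, stood at 24.1 FPKM in mutant spleen at 6 h, where wild type had 4.38 and 7.80 FPKM, a log2 difference of 1.87 (SE 0.41, limma adjusted p = 0.0435). It fell with time in wild type by 1.59 (SE 0.34, limma adjusted p = 0.0201). The B-cell and T-cell marker sums moved with it in both comparisons, and their part was not tested. Il11ra1 and Lifr also had higher values in the mutant library at 6 h than in either wild-type library, at 16.9 and 4.13 FPKM, and did not pass. None of the 3 was called at 90 min, where Il11ra1 lay below wild type in both mutant libraries (7.09 and 9.35 against 18.7 and 12.1 FPKM). Over all genes, limma called 0.0176% at 90 min, 3.96% at 6 h and 10.7% in wild type over time.

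The 12 kinases, inhibitors and shedding enzymes of the pathway were all tested, and limma called none in any of the 6 comparisons, where it called between 0% and 10.7% of all genes. At 6 h 7 of the 12 had an unadjusted p under 0.05 between genotypes, as did 1 of the 8 members (Il6) and 28.4% of all genes. Jak1, the main kinase of gp130, was at 84.1 FPKM in the mutant library at 6 h against 22.0 and 54.7 FPKM, and Ptpn6, the phosphatase SHP-1, at 249 against 80.1 and 95.03 FPKM. Socs1, a sister inhibitor of JAK kinases, was at 75.5 against 201 and 194 FPKM, and Ptpn2, a phosphatase that acts on STAT proteins, at 29.8 against 83.3 and 60.6 FPKM. The list therefore held values on both sides at 6 h, with 7 of 12 separate and higher and 3 separate and lower, beside 54.9% and 25.3% of all genes.

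STAT3 target genes were followed with a list of 20, all of them tested. Between genotypes at 90 min none was called, 16 had lower log2 values in mutant spleen (43.5% of all genes did) and the median was -0.30, beside 0.071 for all genes. At 6 h 2 of the 20 were called, 1 lower and 1 higher, where 3.96% of all genes were called and 1.05% were called lower. Saa3, an acute-phase serum amyloid A gene, was at 153 FPKM in the mutant library against 2040 and 1033 FPKM in wild type, a log2 difference of -3.24 (SE 0.53, limma adjusted p = 0.0209). Ccnd1, which encodes cyclin D1, was higher, at 36.9 against 5.20 and 10.2 FPKM (log2 difference 2.19, SE 0.46, limma adjusted p = 0.0393). Lrg1, another acute-phase gene, was also above both wild-type libraries, at 116 against 42.2 and 39.4 FPKM, without passing the test. Lcn2 and Lrg1 are also neutrophil genes, and the summed neutrophil markers were higher in the mutant library at 6 h, as given above; their part in this list was not tested. The list did not move in 1 direction at 6 h: 13 of 20 had lower values (33.8% of all genes did), with a median of -0.26 beside 0.32 for all genes.

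With time in wild type, 7 of the 20 targets were called, 3 higher and 4 lower, where 4.39% of all genes were called higher and 6.32% lower. Saa3 rose by 3.65 (SE 0.43, limma adjusted p = 0.00221), from 120 and 109 FPKM to 2040 and 1033 FPKM. Lcn2, an iron-binding protein of neutrophils and the acute phase, rose by 2.30 (SE 0.26, limma adjusted p = 0.00197), and Lrg1 rose by 1.79 (SE 0.35, limma adjusted p = 0.0160). The early-response transcription factors Fos (-1.81), Junb (-1.57) and Cebpd (-1.67) and the survival gene Bcl2l1 (-1.74) fell (limma adjusted p between 0.0141 and 0.0247). Other transcription factors of the list were not called, and Hif1a (0.98) and Cebpb (0.25) had higher values at 6 h. In the mutant library at 6 h Lcn2 was at 322 FPKM, against 164 and 137 FPKM at 90 min and 476 and 629 FPKM in wild type at 6 h.

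**Figure D5:**
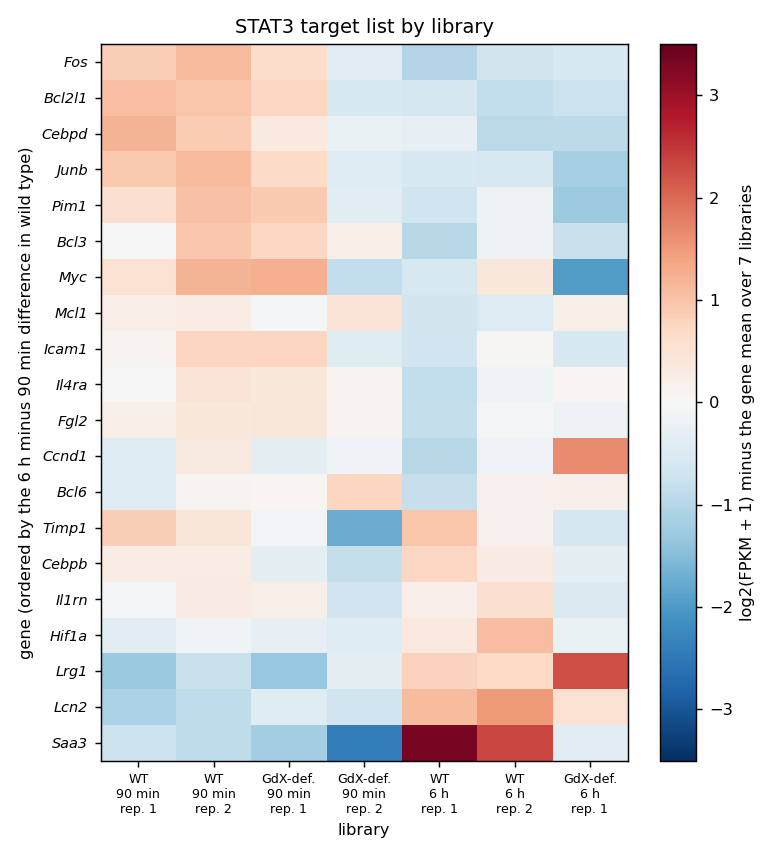
Colour shows log2(FPKM + 1) of each of the 20 STAT3 target genes minus its mean over the 7 libraries, with libraries across and genes down, ordered by the wild-type difference between times. Saa3 is high in the wild-type libraries at 6 h (2040 and 1033 FPKM) and not in the mutant one (153 FPKM).

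Genes known to control Il6 transcription or the stability of its mRNA were the last list, with 10 of 11 tested. None was called between genotypes at either time. Their median log2 difference was -0.61 at 90 min, with 9 of 10 lower, beside 0.071 and 43.5% for all genes. At 6 h it was -0.33, with 8 of 10 lower, beside 0.32 and 33.8% for all genes. Nfkbia, the NF-kB inhibitor, was at 991 and 414 FPKM in mutant and 1516 and 1266 FPKM in wild-type spleen at 90 min; the 6 h values were 287 FPKM against 930 and 536 FPKM. Cebpb, a transcription factor also known as NF-IL6, was at 48.0 and 33.6 FPKM against 73.1 and 72.8 FPKM, and at 47.8 against 101.2 and 74.7 FPKM at 6 h. Of the 10 genes, 2 (Nfkbia and Cebpb) were below wild type in each mutant library at its time, where 13% of all genes were, and Cebpb was named here with its values already known. Nfkbiz, which encodes the NF-kB cofactor IkB-zeta needed for Il6 induction, was at 237 and 57.4 FPKM against 220 and 256 FPKM at 90 min, and at 27.7 against 45.9 and 76.5 FPKM at 6 h. In wild type Cebpd, Nfkbiz and Zfp36, an mRNA decay factor, were lower at 6 h (Nfkbiz -1.98, limma adjusted p = 0.0499; Zfp36 -1.71, limma adjusted p = 0.0183); these are 3 of 10, where 10.7% of all genes were called and 6.32% were called lower.

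The genes whose log2 values followed Il6 most closely over the 7 libraries were Tmed5 (Pearson's r = 0.986), Cxcl10 (0.984), Crem (0.984), Srsf7 (0.983) and Rnd1 (0.982). Cxcl10, an interferon-inducible chemokine, was at 360 FPKM in the mutant library at 6 h and at 1394 and 1304 FPKM in wild type. For Socs3 they were Arid5a (0.997), Tmem243 (0.993), Jun (0.987), Cish (0.985) and Cd14 (0.985). Arid5a, which encodes an RNA-binding protein known to stabilise Il6 mRNA, was at 93.7 and 46.7 FPKM in mutant and 60.3 and 88.9 FPKM in wild-type spleen at 90 min. Like Socs3, it was high in replicate 1 of the mutant group and low in replicate 2. The correlation between Il6 and Socs3 themselves was 0.793. These 7 libraries share 2 times and 2 genotypes, so the correlations describe them and are not independent of the group differences.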

How the data were processed

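Each of the 7 libraries has a column of FPKM that the authors deposited, named by its sample title; no raw count was used. HISAT2 2.0.4, HISAT, Bowtie2, RSEM and GRCm38.p5 are named in the submitters' processing notes, without role or order, and filters are not given in the sources used here. Overlapping or near-identical genes may therefore share fragments. The depth, 18900000 to 21200000 fragments, is an estimate from low values.

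Values were put on the log2(FPKM + 1) scale for 11378 genes (mean FPKM 1 or more) and fitted with limma 3.58.1 in R 4.3.3 (empirical Bayes with a trend, two-sided, Benjamini-Hochberg over all genes, threshold 0.05). Contrasts came from a fit of the 4 groups, and genotype with time as covariate from an additive model. GdX-deficient at 6 h has 1 library, assumed to vary like the others. The deposited FPKM was not rescaled. On simulated data the tests called no gene where none was changed, but missed most changed genes in pairwise contrasts with the single library and all of them in the interaction. The simulated libraries varied independently, unlike the wild-type groups, whose replicate differences correlated with r = 0.77. The absence of false calls in the simulation therefore says little about false calls in these libraries.

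The members, gene lists and naming rule were chosen with earlier results of these data known: all 8 members, pathway genes past the threshold or up to 4 per list with the highest mean, and the 5 genes most like Il6 and Socs3. Gm44504, Cntf, and Cebpb among the genes that control Il6, were named after their values were seen. Alternatives were another pseudocount (0.1), other filters (none, a mean of 5), quantile normalization, rescaling without globin genes, the replicate number as a block, only the libraries compared, and leaving out each library.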

Additional observations from a re-analysis of the deposited data

How the results depend on the processing

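Of 626 values of the 8 members recomputed under an alternative, 567 kept their direction and their side of the threshold, 10 lost a call, 26 gained one and 23 changed sign; no value that changed sign had passed the threshold. The number of members called at 90 min was 0, and 1 with only the libraries compared, or 0 to 1 when a library was left out. At 6 h it was 1, but 0 without a filter on low values, 2 with the replicate block, and 1 to 2 with a library left out. With time as covariate it was 0, or 0 to 1 with a library left out. In wild type over time it was 3, but 0 without a filter, 1 after rescaling without globin genes, and 1 to 5 with a library left out. In GdX-deficient spleen over time it was 0, but 1 with the replicate block, 2 with only the libraries compared, and 0 to 2 with a library left out. The cause of these shifts was not tested. Signs changed for Stat3 at 90 min (0.019 after quantile normalization, 0.039 after rescaling), Osm at 6 h (-0.41 after quantile normalization, -0.10 with the replicate block), Osmr at 6 h (-0.29 after quantile normalization), Osmr with time as covariate (0.12 after rescaling) and Il6ra over time in GdX-deficient spleen (-0.058 after quantile normalization). Leaving out 1 library moved the 90 min difference of Il6st between -0.16 and 0.23, Il6ra between -0.15 and 0.56, Stat3 between -0.52 and 0.18 and Socs3 between -0.92 and 0.35. It moved Osm at 6 h between -0.061 and 0.074, Osmr at 6 h between -0.086 and 0.65, Osmr with time as covariate between -0.31 and 0.055, Osm over time in GdX-deficient spleen between -0.35 and 0.29 and Il6ra there between -0.11 and 0.60. The interaction moved between -1.13 and 0.14 for Socs3 and between -0.29 and 1.62 for Lif.

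Over all genes, the calls were 2 at 90 min (2 to 183 over the alternatives), 450 at 6 h (90 to 3383), 5 with time as covariate (2 to 1674), 1218 in wild type over time (450 to 2345), 0 in GdX-deficient spleen over time (0 to 251) and 8 for the interaction (0 to 238). The replicate numbers of the titles tracked a shared difference between the wild-type groups, whose replicate differences correlated across genes with r = 0.77, but not between those and the mutant group: r was 0.080 between GdX-deficient at 90 min and wild type at 6 h and -0.12 between the genotypes at 90 min. No label says what the numbers share, so they were not used as pairs. The block raised the calls in wild type over time from 1218 to 2345 and left the members called there at 3. Between genotypes at 6 h the block raised the calls from 450 to 3383 of 11378 genes and the median of all genes from 0.32 to 0.42. Il6ra passed the threshold there (1.08, limma adjusted p = 0.0307). The block also brought Il6 over time in GdX-deficient spleen past it (-4.51, limma adjusted p = 0.0405). Comparisons of the GdX-deficient 6 h library have no value without it, and Lif has none at a mean FPKM of at least 5.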
